A study of Mus musculus with 6 samples.

Results

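The genes described here were 10 ligands and receptors of the tumor necrosis factor (TNF) superfamily in mouse prostate cancer cells stimulated by CSF-1: the ligands Tnf, Tnfsf9, Tnfsf10 and Tnfsf11, the signaling receptors Tnfrsf1a, Tnfrsf1b, Fas, Tnfrsf9 and Tnfrsf12a, and the secreted decoy receptor Tnfrsf11b. They were chosen by name with earlier results of these data known, so counts of called members beside those of all genes are a description. Every array probe carrying one of these gene names was taken. That gave 12 of the 55681 probes and 10 of the 36028 genes with a usable probe. Testing required the array software's flag for a signal well above background in each replicate of 1 group or more. This left 7 members among 24648 tested genes, while Tnf, Tnfsf10 and Tnfsf11 were too dim and were described by their values alone.

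The cells were N18-Fms cells (N18-CFMS in the labels), grown in serum-containing medium with dihydrotestosterone in every group. They derive from 1 luciferase-transfected clone of the TRAMP C2H prostate tumor line, which carried the murine CSF-1 receptor c-fms by retroviral transduction, so the Control cells also carried the receptor and the model rests on a single clone. Control cells were left unstimulated, and the other groups received recombinant murine CSF-1 at 100 ng/ml for 24 h (CSF1 24H) or 48 h (CSF1 48H), with 2 single-color arrays a group from RNA of 2 independent experiments. The labels' times are used throughout, although the study's methods text names a shorter pair of times for the same arrays, and the parental clones are themselves described as secreting CSF-1.

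Members of the TNF superfamily are mostly trimeric ligands, held at the cell surface or shed from it, that gather their receptors into clusters. Receptors with an intracellular death domain, such as Fas and the TNF receptor encoded by Tnfrsf1a, can start caspase activation or NF-kappaB signaling, whereas receptors without one, such as those encoded by Tnfrsf1b, Tnfrsf9 and Tnfrsf12a, recruit TRAF adaptors. Decoy receptors bind a ligand without passing on a signal. In prostate cancer the ligand RANKL (Tnfsf11), its receptor RANK (Tnfrsf11a) and its decoy osteoprotegerin (Tnfrsf11b) are best known for their part in bone metastasis.

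Each array gave 58.7% to 72.0% of its 59305 spots well above background and no saturated spot, and replicate arrays correlated at 0.9926 to 0.9936 across the tested genes. The CSF1 24H replicate 1 array lay on another slide than the other 5 and was scanned on another day, so each result was also computed without it. The introduced receptor gene Csf1r did not pass the test at 24 h (log2 fold change 0.22, adjusted p = 0.367) or 48 h (-0.07, adjusted p = 0.793), and its ligand gene Csf1 gave -0.36 and -0.70 with adjusted p of 0.476 and 0.184. Among the epithelial markers, the keratin gene Krt8 was well above background on all 6 arrays, whereas Cdh1 was on none and Epcam was on 1. Among 10 macrophage markers, Ptprc, Adgre1, Itgam, Cd14 and Mrc1 were well above background on all 6 arrays, and Lyz2 and Spi1 were on none. Of 42 markers of 8 cell types 32 were tested, and at each time 4 were called higher and 4 lower by limma. Of all tested genes 14% were called at each time. At both times the macrophage genes Cd14 and Mrc1 and the endothelial gene Cdh5 were higher, and the fibroblast genes Col1a1, Col3a1 and Pdgfrb and the smooth muscle gene Acta2 were lower. The remaining calls were the fibroblast gene Pdgfra, higher at 24 h, and Krt8, higher at 48 h. Mrc1 gave log2 fold changes of 4.27 and 3.56, Cdh5 3.87 and 3.97, and Acta2 -2.26 and -3.48 at 24 h and 48 h, with limma adjusted p of 0.0345 or less. Cdh5 was not well above background on Control replicate 1, so it entered the test only through the CSF-1 groups. Whether any other cell type had a part in the results was not tested, and in bulk RNA more cells of a type and more RNA per cell cannot be told apart.

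All values below are log2 signals relative to the 75th percentile of the array's own probes, so that 0 is the level of that percentile and each unit is a doubling or halving; they compare arrays for 1 probe and are not levels to set between genes. Differences were tested with limma over all 24648 genes, 2-sided, and a gene was called at a Benjamini-Hochberg adjusted p under 0.05. With 2 arrays a group an exact permutation test of a single gene cannot give a p below 0.333, so the calls rest on a spread estimate shared across genes. Where arrays of 2 groups are said below not to overlap, this is a description and no test. The share of all genes without such overlap is not given here. Tnfrsf12a, not called, lay above both Control arrays at both times, and so did Tnf at 24 h, though too dim to test. In the comparison of 24 h with Control, 4 of the 7 tested members were higher and 0 were lower, where 14% of all tested genes were called, 8.02% higher and 5.99% lower. At 48 h, 4 were again higher and 0 lower, with 14% of all genes called, 6.58% higher and 7.38% lower. By an unadjusted limma p under 0.05 with at least 2-fold change, 2 members were called at each time and 0 between the times, against 7.68%, 6.48% and 2.27% of all genes. The members called at each time were Tnfrsf11b, Tnfsf9, Tnfrsf1a and Tnfrsf1b, and both comparisons used the same Control arrays. The median log2 fold change over the 7 tested members was 0.81 at 24 h and 0.85 at 48 h, beside 0.04 and -0.04 over all tested genes. Centering each array on its median in place of the 75th percentile moved the all-gene median to -0.25 at 24 h and -0.14 at 48 h, which left Tnfrsf11b and Tnfsf9 called and Tnfrsf1a and Tnfrsf1b not, and it turned the calls of all genes at 24 h from 1977 higher and 1477 lower to 1197 higher and 3706 lower.

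**Figure D1:**
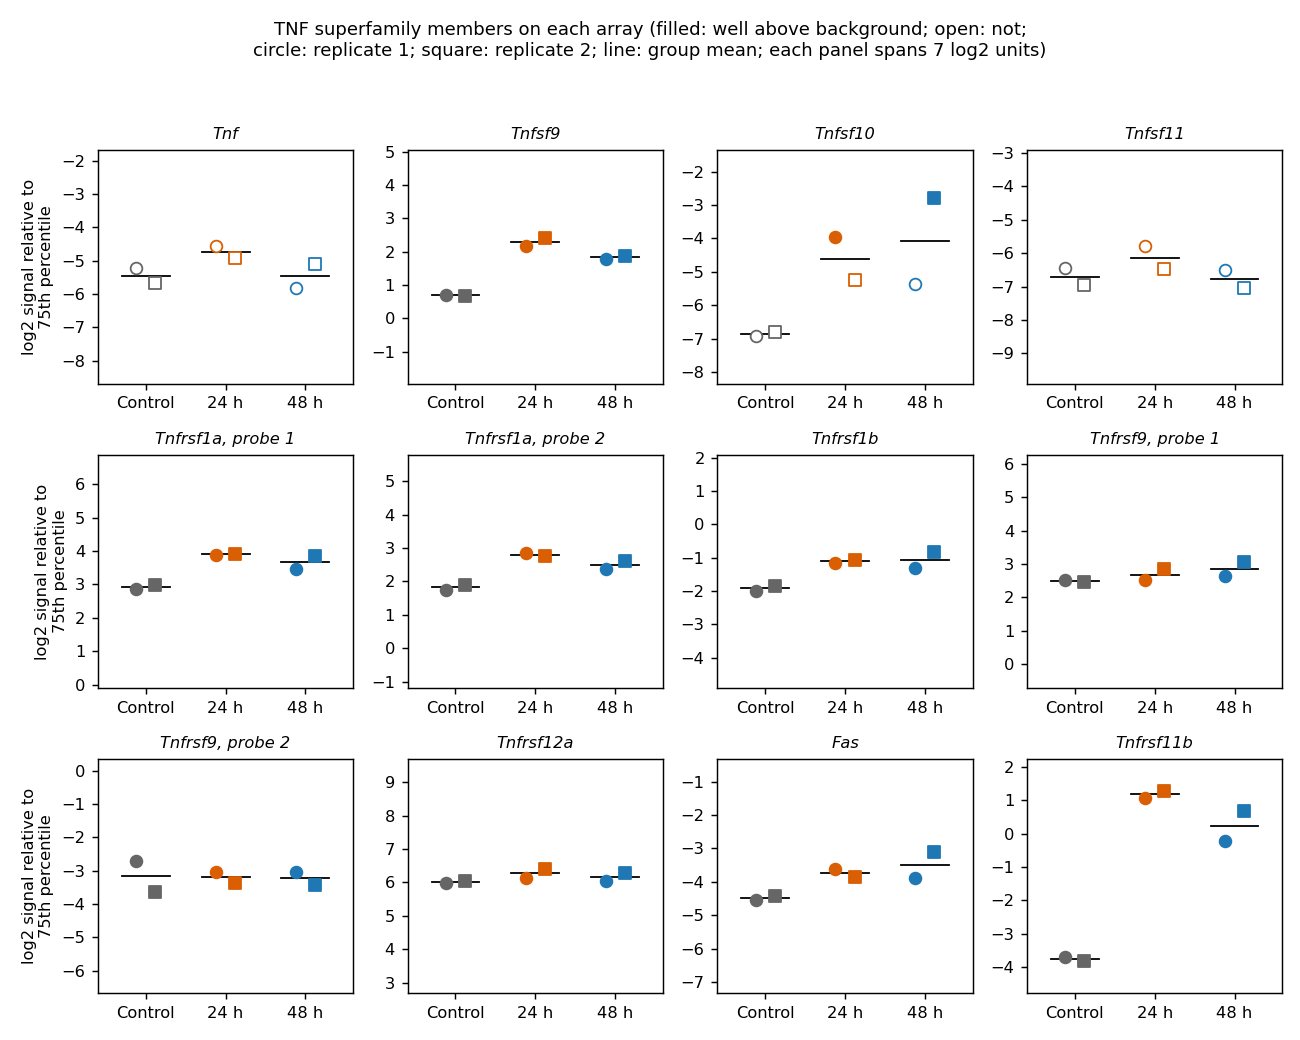
Log2 signal relative to the 75th percentile (vertical axis, 7 log2 units in each panel) of the 12 probes on the 6 arrays, by group (horizontal axis), with circles for replicate 1, squares for replicate 2, filled marks where the probe was well above background and a line at the group mean. Tnfrsf11b stood near -3.8 on both Control arrays and above -0.3 on all 4 CSF-1 arrays, and Tnf and Tnfsf11 had open marks throughout.

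The probe stretches that carry these values are shown because 2 members were read by a pair of probes and 1 probe ends in a repeat. Each line gives the last 30 of 60 bases, 5′ to 3′, as printed in the array files, whose coordinates are on mm9, and capitals mark a GT dinucleotide repeat. The Tnfrsf11b probe lay at chr15:54082760-54082819 on the minus strand and the Tnfsf9 probe at chr17:57247062-57247121 on the plus strand. The Tnfrsf1a probes lay within the same gene on chromosome 6, at chr6:125312376-125312435 (probe 1) and chr6:125311922-125311981 (probe 2), and the Tnfrsf9 probes on chromosome 4, at chr4:150319582-150319641 (probe 1) and chr4:150319101-150319160 (probe 2), all on the plus strand.
Tnfrsf11b: ctacagactgtgtgtcctctcattaccaca
Tnfsf9: tagtaaactgctgggcagctgctagataaa
Tnfrsf1a probe 1: atggatgaactgtgtaaggtaaggacaagc
Tnfrsf1a probe 2: gaatatcctcgaggctctgagaaatcccgc
Tnfrsf9 probe 1: taaaatcaGTGTGTGTGTGTGTGTGTGTGT
Tnfrsf9 probe 2: taacatatttgtctttaccttttttaaatc

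Osteoprotegerin (Tnfrsf11b), the decoy for RANKL that also binds TRAIL, was the member with the largest change. Its log2 values were -3.70 and -3.82 in Control, 1.08 and 1.27 in CSF1 24H, and -0.23 and 0.68 in CSF1 48H, corresponding to processed signals of 42.2 and 43.2, then 1207 and 1444, then 472 and 969. Every CSF-1 array was above both Control arrays, and both 48 h arrays were below both 24 h arrays. The log2 fold change was 4.94 at 24 h (SE 0.30, adjusted p = 0.00208 by limma), a 30.7-fold increase with a 95% confidence interval of 18.1 to 52.0. At 48 h it was 3.99 (adjusted p = 0.00279), a 15.9-fold increase with an interval of 9.39 to 27.0. By absolute log2 fold change it ranked 44 of the 24648 genes at 24 h and 140 at 48 h. Leaving out any 1 array kept the gene called, with log2 fold changes of 4.84 to 5.04 at 24 h and 3.54 to 4.45 at 48 h. Normexp background correction, which adds an offset to every signal, lowered the change to 3.60 at 24 h and 2.73 at 48 h with the same percentile shift, and to 3.54 and 2.64 with quantile normalization, and the gene stayed called. The direct difference of 48 h from 24 h was -0.95 (95% confidence interval -1.71 to -0.19, unadjusted p = 0.0235) and did not pass adjustment (limma adjusted p = 0.28).

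The ligand and receptor that osteoprotegerin works between gave another picture. Tnfsf11, which encodes RANKL, was not well above background on any of the 6 arrays, with log2 values from -7.04 to -5.79 and processed signals of 4.59 to 10.3. Tnfrsf11a, the gene of the signaling receptor RANK, was well above background on all 6 arrays and did not pass the test at 24 h (log2 fold change 0.04, adjusted p = 0.859) or 48 h (0.06, adjusted p = 0.742). No fold is given for Tnfsf11, since no group was well above background.

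Tnfsf9 encodes 4-1BB ligand, a costimulatory ligand of T cells, and was the only ligand among the 10 members bright enough to test. On Control arrays its log2 values were 0.71 and 0.67, on CSF1 24H arrays 2.18 and 2.41, and on CSF1 48H arrays 1.79 and 1.87. The 3 groups did not overlap, and the 48 h arrays lay between the other groups. Tnfsf9 rose by 1.61 at 24 h (SE 0.13, limma adjusted p = 0.00351), which is 3.04-fold with an interval of 2.45 to 3.79. At 48 h the log2 fold change was 1.14 (limma adjusted p = 0.00743), which is 2.20-fold with an interval of 1.77 to 2.74. Without Control replicate 2 the limma adjusted p at 48 h was 0.0508 and without CSF1 48H replicate 2 it was 0.0503, at a log2 fold change of 1.12 in the first case. The difference of 48 h from 24 h was -0.47 (unadjusted p = 0.0120, limma adjusted p = 0.231).

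Its receptor gene Tnfrsf9, which encodes 4-1BB, was read by a pair of probes that did not behave alike. Probe 1 gave log2 values of 2.51 and 2.47 in Control, 2.51 and 2.84 in CSF1 24H, and 2.63 and 3.07 in CSF1 48H. Probe 2 gave -2.70 and -3.63, then -3.04 and -3.36, then -3.03 and -3.43. The Control replicates differed by 0.93 log2 units on probe 2 and by 0.04 on probe 1, and neither probe passed the test at 24 h (log2 fold changes 0.18 and -0.03) or 48 h (0.36 and -0.07). Probe 1, the brighter one that stands for the gene, ends in 11 GT units, as its sequence above shows. A GT or CA run of at least 8 units was present in 110 of all 55681 probes (0.198%), and 100% of these were well above background on every spot of every array, against 53.1% of all probes. Whether probe 1 also read other transcripts was not tested, and median centering turned its 24 h log2 fold change to -0.10.

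Both TNF receptor genes were higher after CSF-1 stimulation. Tnfrsf1a encodes TNFR1, the death domain receptor of TNF, and probe 1 was spotted 10 times on every array. The spot means were 2.85 and 3.00 in Control, 3.89 and 3.92 in CSF1 24H, and 3.47 and 3.86 in CSF1 48H. Spots of 1 array had an SD of 0.04 to 0.05, so the distance between the 2 CSF1 48H arrays was larger than the spot error. No CSF-1 array overlapped a Control array. The log2 fold change was 0.98 at 24 h (SE 0.16, limma adjusted p = 0.0203), which is 1.97-fold with an interval of 1.49 to 2.61. It was 0.74 at 48 h (limma adjusted p = 0.0409), which is 1.67-fold with an interval of 1.26 to 2.21. Probe 2 had log2 values of 1.75 and 1.89, then 2.85 and 2.75, then 2.38 and 2.61. It gave log2 fold changes of 0.98 at 24 h and 0.67 at 48 h, with limma adjusted p of 0.0146 and 0.0378 over 34814 probes. The gene's call at 24 h was lost without any 1 of the 4 Control or CSF1 24H arrays, where the limma adjusted p ran to 0.0924, and at 48 h it was lost without any array but CSF1 48H replicate 1, with adjusted p up to 0.16. Of 18 other settings, 7 at 24 h and 9 at 48 h put Tnfrsf1a over the threshold, with log2 fold changes of 0.69 to 1.05 and 0.55 to 0.93.

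Tnfrsf1b encodes TNFR2, which lacks a death domain and recruits TRAF proteins. Its log2 values were -1.99 and -1.85 in Control, -1.16 and -1.06 in CSF1 24H, and -1.30 and -0.84 in CSF1 48H. Control and CSF-1 arrays did not overlap, while the 24 h arrays lay between the 48 h arrays. Tnfrsf1b was 1.75-fold higher at 24 h (log2 fold change 0.81, SE 0.18, limma adjusted p = 0.0427, fold interval 1.28 to 2.40) and higher by 0.85 log2 units at 48 h (limma adjusted p = 0.0382, fold interval 1.32 to 2.47). These calls were lost when any 1 of the 4 arrays compared at 24 h was left out, with limma adjusted p up to 0.153. At 48 h only leaving out CSF1 48H replicate 1 kept the call, and the adjusted p otherwise ran to 0.154. Of the 18 other settings, 9 at 24 h and 10 at 48 h put Tnfrsf1b over the threshold, with log2 fold changes of 0.48 to 0.88 and 0.56 to 1.08.

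TNF itself was read by 10 spots that were hardly above background. The mean log2 values were -5.22 and -5.67 in Control, -4.56 and -4.91 in CSF1 24H, and -5.82 and -5.09 in CSF1 48H. Spots of 1 array spread with an SD of 0.31 to 0.82, compared with 0.04 to 0.05 for Tnfrsf1a on the same arrays. Of the spots used, 1 of 10 and 0 of 9 were well above background in Control, 0 of 9 and 2 of 10 in CSF1 24H, and 0 of 8 and 4 of 10 in CSF1 48H. As no array had at least 50% of its Tnf spots well above background, no fold is given. A level of Tnf above background was thus not detectable on most spots, which is not evidence that the transcript is absent.

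**Figure D2:**
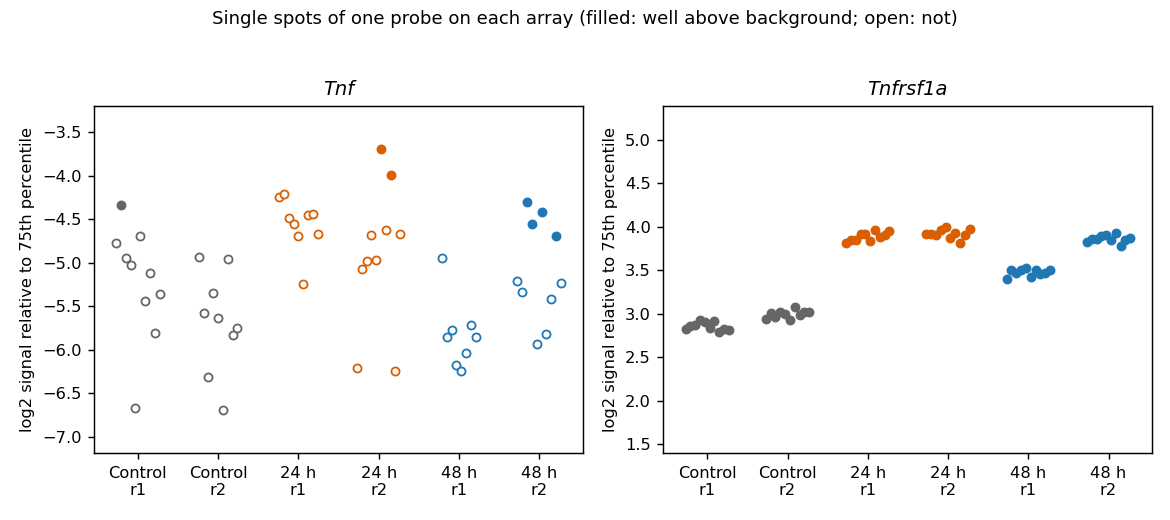
Log2 signal relative to the 75th percentile (vertical axis) of every single spot of the Tnf probe and of Tnfrsf1a probe 1 on each of the 6 arrays (horizontal axis), both panels over 4 log2 units, with filled marks for spots well above background. The Tnf spots were scattered and mostly open, and the Tnfrsf1a spots formed narrow bands that were lowest on the 2 Control arrays.

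Promoter sequence is shown for the TNF receptor genes because they were called at both times and both windows hold letters of the STAT motif. The windows are the 250 bases before the RefSeq transcript start on GRCm38.p6, at chr6:125349473-125349722 on the plus strand for Tnfrsf1a and chr4:145246871-145247120 on the minus strand for Tnfrsf1b, written 5′ to 3′ on the gene's strand. Capitals mark matches to the STAT motif TTCNNNGAA and to the interferon-stimulated response element motif, searched on both strands.
Tnfrsf1a: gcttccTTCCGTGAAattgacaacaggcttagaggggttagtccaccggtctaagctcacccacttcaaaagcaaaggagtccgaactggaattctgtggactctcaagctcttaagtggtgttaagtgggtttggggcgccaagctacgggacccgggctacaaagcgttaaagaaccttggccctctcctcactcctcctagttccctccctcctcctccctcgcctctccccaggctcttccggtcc
Tnfrsf1b: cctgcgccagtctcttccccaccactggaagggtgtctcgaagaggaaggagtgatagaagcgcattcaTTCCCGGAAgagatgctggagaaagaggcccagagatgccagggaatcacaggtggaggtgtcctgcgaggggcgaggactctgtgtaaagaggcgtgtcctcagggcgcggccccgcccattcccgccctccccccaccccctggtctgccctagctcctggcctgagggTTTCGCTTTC
The STAT match began 244 bases before the start in Tnfrsf1a and 181 bases before it in Tnfrsf1b, and the interferon element match of Tnfrsf1b, on the other strand, began 10 bases before the start. A promoter window was available for 8 of the 10 members. None was available for Tnfrsf11b and Tnfsf9, the tested members with the largest changes. The STAT letters were found in 4 of these 8 with a window (Tnfrsf1a, Tnfrsf1b, Fas and 1 of 2 windows of Tnfrsf9), against 7.02% of 32851 mouse promoter windows of the same length. Of these 4 genes, Fas and Tnfrsf9 were not called at either time, and a link of the letters to the change after CSF-1 was not tested. For each motif the members were counted as genes, over 9 windows, whereas the background counts single windows, so the shares are not of the same unit. The interferon element was found in 1 of the 8 members (2.98% of all windows), the AP-1 motif TGANTCA in 2 (Fas and Tnfrsf9, 6.75% of all windows), the kappaB motif in 1 (Tnfrsf9, 7.25%) and TATAAA, searched on the gene's strand, in 1 (Tnf, 7.59%). The AP-1 and kappaB motifs were searched on both strands. These matches describe letters and do not show binding.

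Fas, the death receptor of Fas ligand, was dim and was read by 2 spots of 1 probe. Its log2 values were -4.54 and -4.43 in Control, -3.62 and -3.86 in CSF1 24H, and -3.89 and -3.12 in CSF1 48H. All CSF-1 arrays were above both Control arrays, but only 1 of the 2 spots was well above background on Control replicate 1, CSF1 24H replicate 2 and CSF1 48H replicate 1. Fas did not pass the test at 24 h (log2 fold change 0.74, 95% confidence interval 0.07 to 1.42, limma adjusted p = 0.128) or at 48 h (0.99, interval 0.31 to 1.66, limma adjusted p = 0.0686). With the log2 values deposited by the authors the limma adjusted p was 0.0293 at 24 h and 0.0146 at 48 h, so its side of the threshold depended on which values were used. Normexp correction lowered the log2 fold changes to 0.07 to 0.28 at 24 h and 0.29 to 0.36 at 48 h. Fasl, the ligand gene, was well above background on 1 of 6 arrays.

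Tnfsf10 encodes TRAIL, a ligand that induces apoptosis through death receptors. Its log2 values were -6.92 and -6.82 in Control, -3.96 and -5.25 in CSF1 24H, and -5.35 and -2.79 in CSF1 48H. Every CSF-1 array was above both Control arrays, yet the probe was well above background only on CSF1 24H replicate 1 and CSF1 48H replicate 2, with processed signals of 36.6 and 86.9. No fold change was given and no test was made, since 1 of 2 arrays in each CSF-1 group and no Control array measured it. These 2 arrays also had the largest shares of spots well above background, 72.0% and 70.4% against 58.7% to 63.8% on the other 4, and the part of this in the result was not tested.

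The receptors that bind TRAIL in the mouse were split. Tnfrsf10b, the only mouse TRAIL receptor with a death domain, did not pass the test (log2 fold changes -0.09 and -0.25, limma adjusted p of 0.685 and 0.254). The TRAIL decoy receptor genes Tnfrsf22 and Tnfrsf23 and their relative Tnfrsf26, which lie next to each other on chromosome 7, were higher at both times. Tnfrsf23 had log2 values of 2.37 and 2.63 in Control, 4.21 and 4.49 in CSF1 24H, and 4.36 and 4.67 in CSF1 48H, giving log2 fold changes of 1.85 and 2.01 (limma adjusted p of 0.00575 and 0.00427). Tnfrsf22 gave 1.77 and 1.93 (limma adjusted p of 0.0101 and 0.00816), and Tnfrsf26 gave 1.74 and 1.70 (0.0313 and 0.0328). The second probes of Tnfrsf23 (1.97 and 2.15) and Tnfrsf22 (1.55 and 1.90) moved the same way. These 3 genes are related in sequence, but no probe of 1 shared more than 23 of 60 bases with a probe of another in an ungapped alignment. Normexp correction with quantile normalization lowered the Tnfrsf26 changes to 0.59 and 0.67, and its calls were lost without any 1 of the Control or CSF1 24H arrays at 24 h and without any array but CSF1 48H replicate 1 at 48 h (limma adjusted p up to 0.125 and 0.143). For Tnfrsf22 the limma adjusted p was 0.0551 at 24 h and 0.0549 at 48 h without Control replicate 1, and 0.0522 at 24 h without CSF1 24H replicate 2.

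Tnfrsf12a, the gene of the TWEAK receptor Fn14, was well above background on all arrays and did not pass the test. Its log2 values were 5.97 and 6.05 in Control, 6.13 and 6.41 in CSF1 24H, and 6.06 and 6.29 in CSF1 48H. The log2 fold changes of 0.26 (95% confidence interval -0.12 to 0.64, limma adjusted p = 0.314) and 0.16 (interval -0.22 to 0.54, limma adjusted p = 0.53) did not pass, and median centering turned the first to -0.02. Its ligand gene Tnfsf12 gave -0.02 and -0.10 and did not pass either.

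**Figure D3:**
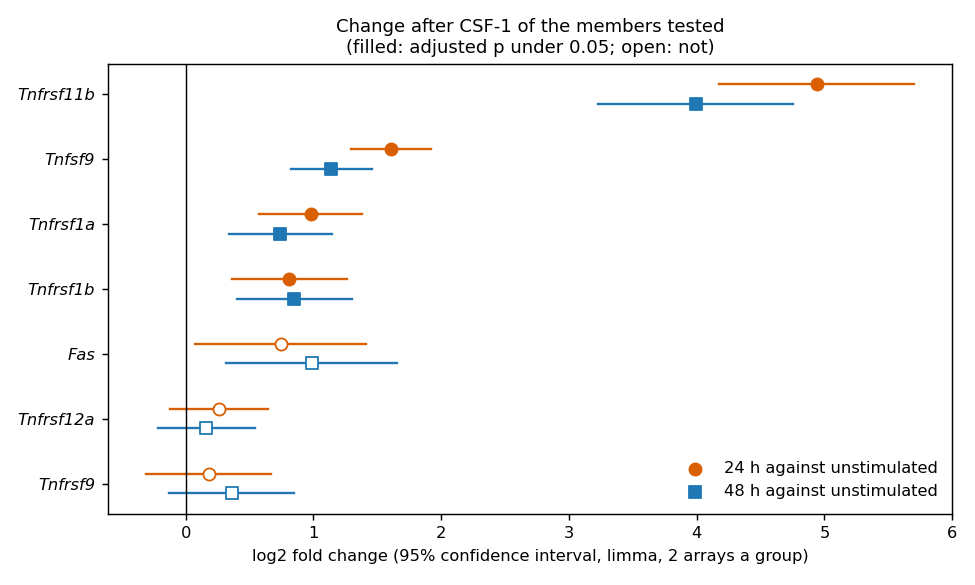
Log2 fold change against Control (horizontal axis) with 95% confidence intervals for the 7 members tested (vertical axis), circles for 24 h and squares for 48 h, filled where the adjusted p was under 0.05. The intervals of Tnfrsf11b (4.18 to 5.70 at 24 h) lay above those of the other 6 genes, and those of Tnfrsf12a and Tnfrsf9 crossed 0.

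Between 24 h and 48 h, 0 of the 7 tested members passed the adjusted limma test with the settings used here. Of all 24648 genes, 0 passed by that fit or by the adjusted t-test of the methods. Limma called 314 genes under normexp with quantile normalization, 211 under normexp with the percentile shift and 195 with an intensity trend. It called 6 under quantile normalization alone, 5 under median centering and 5 among genes well above background on all 6 arrays. Fits without single arrays are not in this list. Under each of the 20 alternatives 0 members were called. With the settings used here, 3357 genes (13.6%) had an unadjusted limma p under 0.05. Tnfrsf11b and Tnfsf9 were the members below that unadjusted level. For Tnfrsf1a the difference of 48 h from 24 h was -0.24 (95% confidence interval -0.64 to 0.17) and for Tnfrsf1b it was 0.04 (-0.41 to 0.49).

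The genes whose 6 centered values lay closest to a called member were found among 13852 other tested genes with a RefSeq symbol. The called members were well above background on all arrays. The other genes needed that flag only in each replicate of 1 group or more. For Tnfrsf11b these were Sele, Cdkn1a and Serpinb2, at mean absolute distances of 0.25, 0.27 and 0.34 log2 units over the 6 arrays. Those of Tnfsf9 were Hbegf, Hoxb4 and Ang2, at 0.07 to 0.08. Tnfrsf1a lay closest to Peli1 (0.03), 9430018G01Rik and Gpd2, and Tnfrsf1b to Gpr137b (0.04), Cd164 and Rnf149. The 6 points of each gene share the arrays and their grouping, so such distances are a description with no test.

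Of 14 other ligands of the family, 13 were on the array, 4 could be tested (Tnfsf12, Tnfsf14, Tnfsf15 and Eda), and 0 were called at either time by limma. Tnfsf14, which encodes LIGHT, was well above background on both CSF1 24H arrays and on neither Control array (limma adjusted p = 0.15). Of 22 other receptors, 16 were tested. At 24 h 4 were higher and 0 lower, and at 48 h 3 were higher and 1 lower, with medians of 0.27 and 0.15. Of all tested genes 8.02% were higher and 5.99% lower at 24 h, and 6.58% and 7.38% at 48 h. The all-gene medians were 0.04 and -0.04. Beside the 3 neighbors on chromosome 7, Tnfrsf8, which encodes CD30, was called higher at 24 h (limma adjusted p = 0.0103). Tnfrsf8 was well above background on both CSF1 24H arrays and on neither Control array. It entered the test only through the group where it was high, so this p is not separate support. With Control values raised to the lowest flagged value of their array where below it, the 24 h mean of Tnfrsf8 was 2.43-fold higher. That figure holds for this scaling and allows for no array error. Its log2 value was -4.81 and -5.06 in Control and -3.51 and -3.75 in CSF1 24H, and it gave no call at 48 h (limma adjusted p = 0.658). The call of Tnfrsf8 was lost without Control replicate 2 or CSF1 24H replicate 1, at limma adjusted p of 0.0592 and 0.0551, and normexp correction with quantile normalization lowered its fitted log2 fold change from 1.31 to 0.28. The death domain receptor gene Tnfrsf21 fell by 0.52 at 48 h (limma adjusted p = 0.0383) and the call was lost without any single array, at limma adjusted p of up to 0.165.

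Among 32 genes that signal below these receptors, 31 were tested and Fadd had no usable probe. At 24 h 7 were higher and 2 lower, and at 48 h 3 were higher and 1 lower, with medians of 0.31 and 0.29. Of all tested genes 14% were called at each time, and the all-gene medians were 0.04 and -0.04. The 48 h count was thus close to the share of all genes and is no result about this list. Cyld, a deubiquitinase that restrains NF-kappaB signaling, showed the largest change of the list. Its log2 values were 1.51 and 1.40 in Control, -0.40 and -0.56 in CSF1 24H, and 0.15 and -0.12 in CSF1 48H, with no overlap of CSF-1 and Control arrays. Cyld fell by 1.94 at 24 h (limma adjusted p = 0.00308) and by 1.44 at 48 h (limma adjusted p = 0.00554). Its second probe gave -1.30 and -1.09, with limma adjusted p of 0.0327 and 0.0511.

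Rnf31, the catalytic subunit of the linear ubiquitin ligase complex, rose by 1.11 at 24 h and 1.08 at 48 h (limma adjusted p of 0.00717 and 0.00739), and its second probe gave 1.06 and 0.99. The partner subunits Rbck1 and Sharpin did not pass at either time. Mlkl, the effector of necroptosis, rose by 1.12 and 1.18 (limma adjusted p of 0.0116 and 0.0106), and its calls were lost without either Control array, CSF1 24H replicate 2 or CSF1 48H replicate 2, at limma adjusted p of 0.0574 to 0.0681. Ripk3, the kinase that activates it, gave 0.32 and 0.31 and did not pass. Called at 24 h and not at 48 h, with no call between the times, were the initiator caspase gene Casp8 (0.74, adjusted p = 0.0294), the adaptor genes Traf1 (0.76), Traf5 (0.76) and Traf4 (0.63), and the BH3-only gene Bid (-0.94, adjusted p = 0.0498). Casp8 and Traf4 are named beyond the 8 genes that the naming rule allowed. The 24 h calls of Traf1, Traf5 and Bid were lost without any 1 of the Control or CSF1 24H arrays, and those of Casp8 and Traf4 without any 1 of the 6 arrays, at limma adjusted p up to 0.194. The sheddase genes Adam10 and Adam17, which release TNF and its receptors from the cell surface, did not pass at either time.

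**Figure D4:**
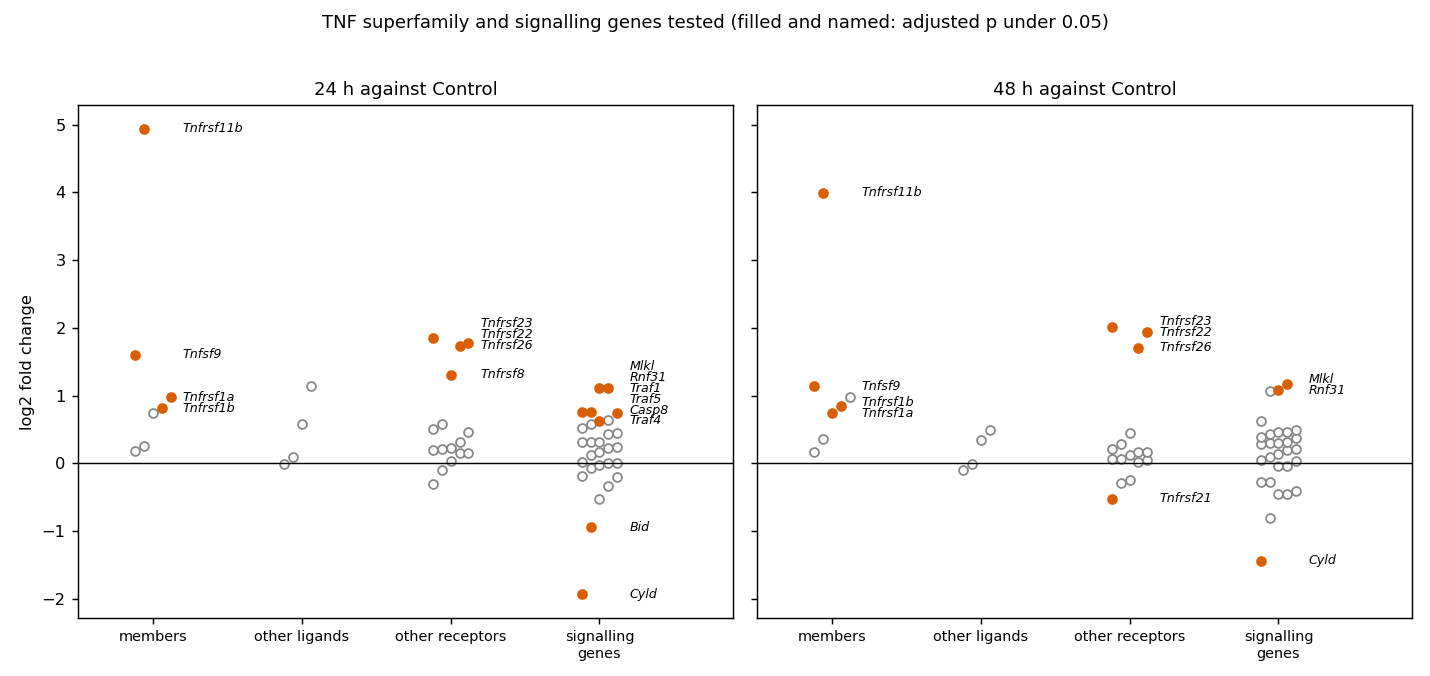
Log2 fold change against Control (vertical axis) of the tested members, other ligands, other receptors and signaling genes (horizontal axis), at 24 h (left) and 48 h (right), filled and named where the adjusted p was under 0.05, for the genes reported here. Tnfrsf11b is the highest point in both panels and Cyld the lowest.

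**Figure D5:**
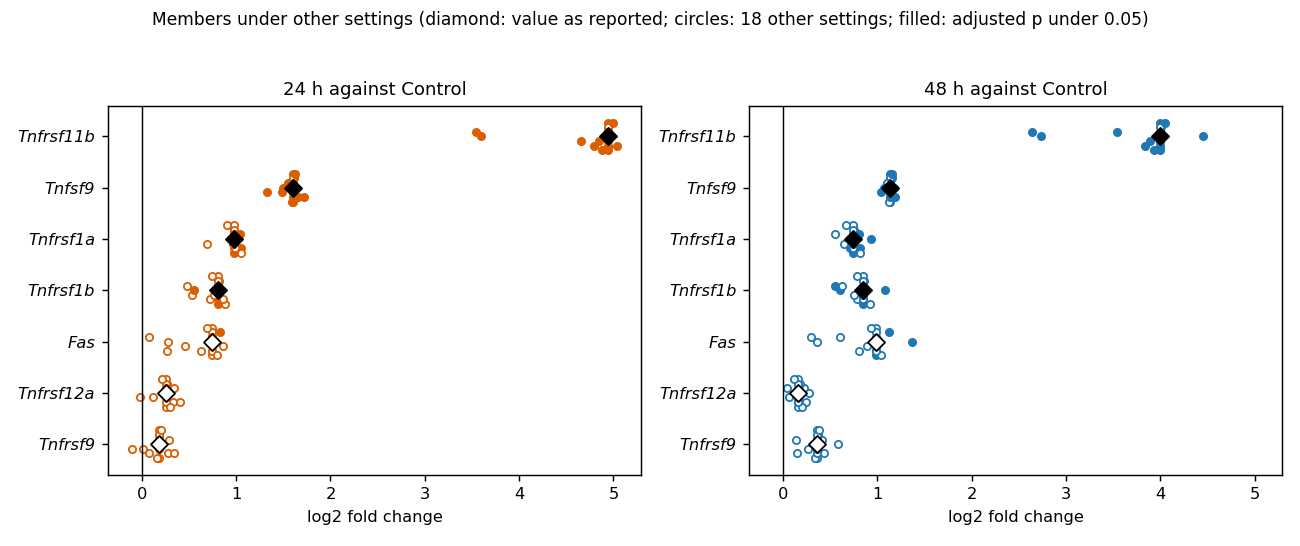
Log2 fold change against Control (horizontal axis) of the 7 tested members (vertical axis) as reported (diamonds) and under 18 other settings (circles), filled where the adjusted p was under 0.05, at 24 h (left) and 48 h (right). Tnfrsf11b stayed between 3.54 and 5.04 at 24 h and between 2.64 and 4.45 at 48 h, and many circles of Tnfrsf1a and Tnfrsf1b are open.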

How the data were processed

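RNA of N18-Fms cells was hybridized to 6 single-color Agilent arrays. The labels name Agilent Feature Extraction 11.0.1, and the probe coordinates in the array files are on mm9. The intensity deposited by the authors is the background-subtracted processed signal per spot, given with background and outlier flags. A deposited table also holds log2 values by the authors, and it was used as an alternative: taken as deviations from each probe's mean and centered by array, 99.78% lay within 0.05 of the values computed here. Its array medians ran from -0.0378 to 0.173, and the baseline subtracted from each probe is not given in the sources used here. Here the log2 processed signal minus the 75th percentile over non-control spots was taken, spots flagged as outliers were dropped, the remaining spots of each probe gave a mean, and the probe with the highest mean stood for the gene. Genes flagged well above background (on at least 50% of their spots) in every replicate of 1 group or more were tested with limma 3.58.1 in R 4.3.3, all 6 arrays in 1 fit, with Benjamini-Hochberg adjustment. The number of arrays limits the precision. Replicates come from 2 independent experiments.

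The members and gene lists were chosen with earlier results of these data known. All members were named with every probe, as were genes of the other lists called at 24 h or 48 h (at most 8 a list by largest absolute log2 fold change), Csf1r and Csf1, and the 3 genes closest to each called member. The limma step was tested on simulated data: of 100 genes changed by 3 log2 units among 24648 it called 88% at 24 h and 89% at 48 h, and of 100 changed by 1 unit it called 36% and 31%. It also made 8 false calls at 24 h and 6 at 48 h. These changed genes were far fewer than the 3454 and 3441 genes called in the data, so the shares recovered may differ there. Alternatives were other scaling, background correction, filters, probe summaries, a replicate block, the methods' t-test, other call rules and leaving out each array. Sequences were read from the array files and from RefSeq promoters (GRCm38.p6). Some genes of the lists are counted but are not reported here by name.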

Additional observations from a re-analysis of the deposited data

How the results depend on the processing

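Under 20 alternatives, Tnfrsf11b and Tnfsf9 kept their direction at both times and Tnfrsf11b lost its calls only under the methods' t-test after adjustment. The number of members called, 4 at each time, was 2 at both times under median centering, without the filter on dim probes, by unadjusted limma p with at least 2-fold change and by the methods' t-test at its own threshold with at least 2-fold change, was 2 at 48 h with only the 2 groups compared in the fit, and was 0 at both times by the methods' t-test after adjustment, which called 0 of 24648 genes. At the methods' unadjusted threshold with 2-fold change that t-test called 1352 genes at 24 h, 1162 at 48 h and 251 between the times, against 1894, 1598 and 560 by limma at that rule and 3454, 3441 and 0 by limma after adjustment. Leaving out single arrays gave 2 to 5 members called at 24 h, with 2 without any Control or CSF1 24H array, and 1 to 5 at 48 h, with 1 without Control replicate 2 or CSF1 48H replicate 2, 2 without Control replicate 1 or either CSF1 24H array and 5 without CSF1 48H replicate 1. The other ligands called at 24 h, 0 as reported, were 1 with the mean of a gene's probes, with only the 2 groups compared and by both 2-fold rules, and 0 to 1 without single arrays. The other receptors called at 24 h, 4 as reported, were 2 under normexp with quantile normalization, 0 by the adjusted t-test and 2 to 4 without single arrays. At 48 h they were 2 without the filter, with only the 2 groups compared and by the t-test with 2-fold change, 0 by the adjusted t-test and 1 to 3 without single arrays, and between the times 1 by both 2-fold rules. The signaling genes called at 24 h, 9 as reported, were 5 under median centering, 3 without the filter and by both 2-fold rules, 0 by the adjusted t-test and 2 to 7 without single arrays, each of which lowered the count. At 48 h, with 4 as reported, they were 12 under normexp with the percentile shift and under an intensity trend, 10 under normexp with quantile normalization, 7 among genes well above background on all 6 arrays, 0 by the adjusted t-test and 2 to 4 without single arrays.

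A change of sign was seen for Tnfrsf9 at 24 h (-0.10), Tnfrsf12a at 24 h (-0.023), Tnfrsf12a between the times (0.0865) and Tnfrsf21 at 24 h (-0.13) under median centering and for Tnfrsf8 at 48 h under quantile normalization (-0.0676), none of which was called. Between the times it was also seen without single arrays, whose values ran from -0.19 to 0.27 for Tnfrsf1b, -0.0387 to 0.40 for Tnfrsf9, -0.24 to 0.043 for Tnfrsf12a and -0.14 to 0.63 for Fas. The cause was not tested. The labels number the replicates alike in each group, but differences between replicates 1 and 2 correlated at only 0.128, 0.0941 and 0.199 between groups, so the numbers were not taken as pairs. With the replicate number as a block the members called were 4 at each time and 0 between the times, the other receptors 5 and 4 and the signaling genes 10 and 5. Low signal limits Tnf, Tnfsf10, Tnfsf11 and Fas.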
